A study of Mus musculus with 7 samples.

Results

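The enzymes that lengthen fatty acids (FAs) beyond palmitate were followed in optic nerves of mice in which fatty acid synthase (FASN) is deleted in the oligodendrocyte (OL) lineage. They are 9 genes chosen by name, the 7 elongases Elovl1 to Elovl7 and the partner enzymes Hsd17b12 and Tecr, and all 9 were among the 22880 genes of the table. Samples were optic nerves of P14 mice (14 days after birth) from 4 controls (CT) and 3 conditional mutants (cMU), and both nerves of 1 mouse made 1 sample. Per the sample labels, all 7 mice carried Fasn lox/lox on a C57Bl/6 background. The floxed allele originated in 129X1/SvJ mice, was later crossed with 129X1/SvJ, C57BL/6 and DBA, and went through 3 or more backcrosses to C57Bl/6. The cMU mice also carried olig2cre, a Cre recombinase driven by Olig2 regulatory elements, and the CT mice had no Cre, so effects of the Cre transgene and of the loss of FASN cannot be told apart. Cre acts in cells that express Olig2 or descend from such cells, and the remaining cells of the nerve keep an intact Fasn gene. A bulk sample averages over OLs, astrocytes, microglia, vessels, meninges and other cells, and fewer cells of a type cannot be told apart from less RNA per cell.

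FASN builds palmitate in the cytosol from malonyl-CoA, and the elongation cycle of the endoplasmic reticulum adds further malonyl-CoA units to palmitate or to FAs taken up from outside. An ELOVL elongase condenses the acyl-CoA with malonyl-CoA, HSD17B12 reduces the product, a dehydratase of the HACD family removes water and TECR carries out the last reduction. The elongases set which chains enter the cycle, and the very long chains they make are a hallmark of the galactolipids and other sphingolipids of myelin.

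Levels are given as FPKM (fragments per kilobase of transcript, scaled for library size), a value per length. Comparisons between genes rest on the gene length used. Sequencing depth, estimated from the normalized counts, was 27452222 to 43462575 reads per sample. Its median was 41300256 in CT and 31069795 in cMU. Differences are log2 fold changes of FPKM + 0.5, cMU relative to CT, from limma-trend over the 13866 genes with at least 0.5 FPKM in at least 3 samples. A gene was called when its Benjamini-Hochberg adjusted p was under 0.05, which held for 363 genes (2.62% of those tested), 175 higher in cMU (1.26%) and 188 lower (1.36%). The split moved with scaling, to 135 higher and 221 lower after rescaling samples by their median ratio and to 103 higher and 267 lower on normalized counts. The count of called genes ranged from 6 without CT sample 3 or cMU sample 3 to 909 without cMU sample 2. It was 1159 (8.36%) with a replicate block, which pairs samples of equal number, a pairing that the labels do not give. Fasn, the deleted gene, had 210.3, 169.1, 211.1 and 228.3 FPKM in CT samples 1 to 4 and 69.3, 50.52 and 48.98 FPKM in cMU samples 1 to 3, which is 27.5% of the CT mean. Its log2 fold change was -1.86 (standard error 0.138, limma-trend adjusted p = 0.00312), and it was called with each sample left out in turn.

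Markers of OL lineage cells and astrocytes included called genes. The 10 markers of myelinating OLs all had negative log2 fold changes (median -0.28), and Mag and Cnp, which encode myelin proteins, were called lower. Mbp, the most abundant of them, had lower FPKM in each cMU than in any CT sample but was not called. The authors reported reduced Mbp transcript in their own comparison and by qRT-PCR of P14 optic nerves. In newly formed OLs and OL progenitors, 7 of 8 markers were negative in each list, with Gpr17, Tmem163, Cspg4 and Vcan called lower. All 8 astrocyte markers were positive (median 0.59, against 0.05 over all genes tested), with Aldh1l1, Slc1a2, Gja1 and Aldoc called higher, and their summed FPKM was 3012 to 3446 in CT and 3971 to 4748 in cMU. The 8 markers each of microglia, endothelial cells, meningeal fibroblasts and neurons were positive and none was called without a block, with the fibroblast sum at 1911 to 2685 FPKM in CT and at 4851, 2546 and 2916 FPKM in cMU samples 1 to 3. Without CT sample 1, 2 or 3 or cMU sample 3, none of these 10 called markers passed (lowest limma-trend adjusted p 0.0503). With the block Mag (0.0726) and Cnp (0.0605) did not pass, whereas the calls numbered 6 of 8 for meningeal fibroblasts, 6 of 8 for astrocytes, 5 of 8 for newly formed OLs, 3 of 8 for OL progenitors, 2 of 8 each for endothelial cells and neurons, 1 of 8 for microglia and 1 of 6 for Schwann cells. Of the Schwann cell markers tested 3 were positive and 3 negative, and for adipocytes only 1 of 8 markers passed the filter on low values. The part of these cell types in the elongase values was not tested, apart from the comparison with OL markers given further on.

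None of the 9 enzymes of FA elongation was called. Of the 8 that could be tested, 4 had a higher and 4 a lower mean in cMU. The median log2 fold change of the 8 was 0.03 against 0.05 over all genes tested. An unadjusted p under 0.05 in limma-trend was found for 3 of the 8, and for 3387 of the 13866 genes tested. In FPKM, Elovl1 and Elovl4 were lower in each cMU than in any CT sample, a separation shown by 8.26% of all genes tested, and Elovl5 and Elovl6 were higher in each cMU, shown by 12.9%. The summed FPKM of the 7 elongases was 656.8, 634.8, 621.1 and 606.3 in CT samples 1 to 4 and 609.6, 700.9 and 638.3 in cMU samples 1 to 3. The groups overlapped, with means of 630 ± 21.5 (SD, n = 4) and 650 ± 46.7 (SD, n = 3) and a two-sided exact permutation p of 0.514.

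**Figure D1:**
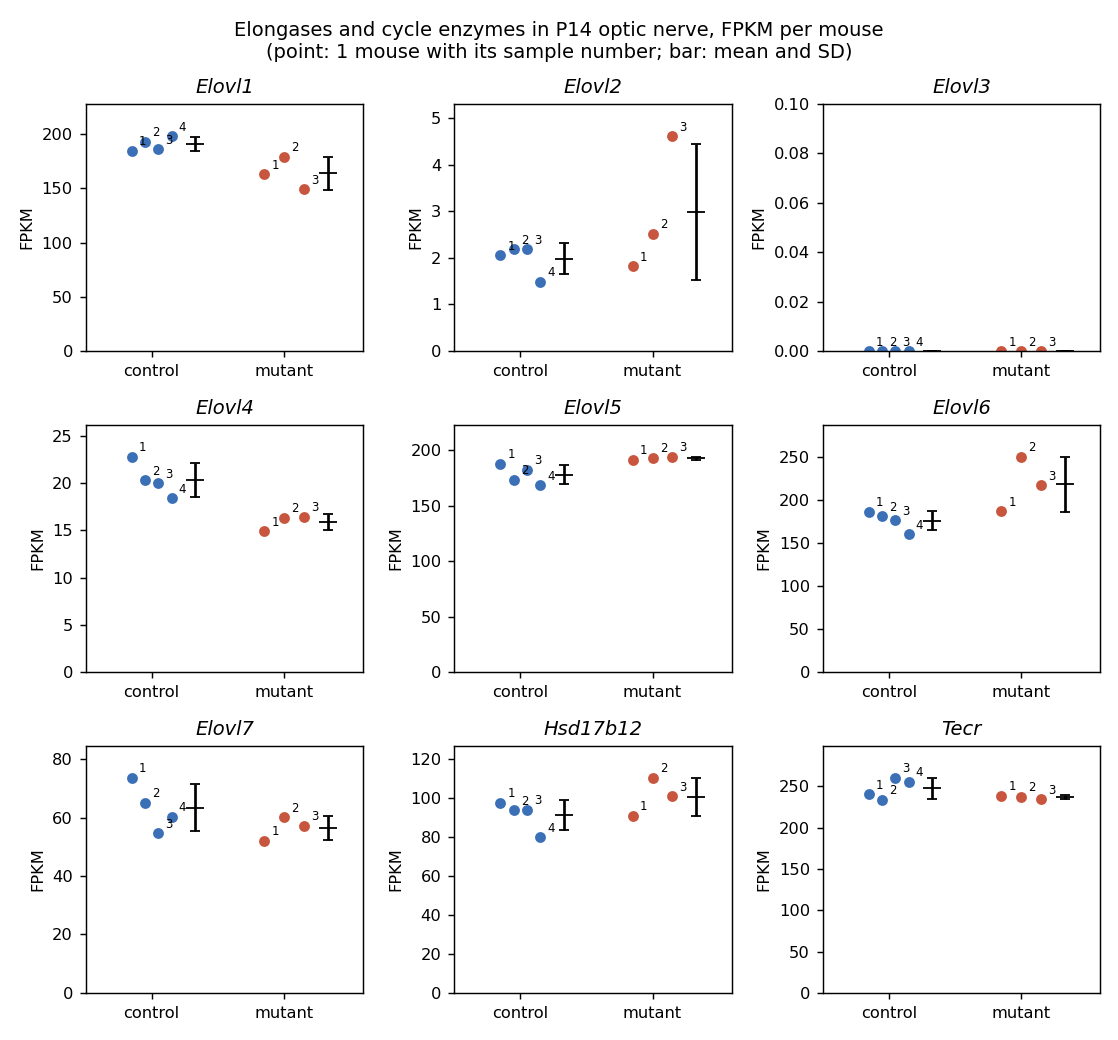
FPKM of each of the 9 genes in each optic nerve sample, with CT and cMU on the horizontal axis, a number for each mouse, and a bar with whiskers for the mean and SD. Elovl1 and Elovl4 of the cMU samples lie below those of CT, Elovl6 lies above with cMU sample 1 only 0.4 FPKM from the highest CT sample, and Elovl3 is at 0 throughout.

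ELOVL6 elongates palmitate and other chains of similar length and so takes up the product of FASN. Elovl6 (ENSMUSG00000041220; GRCm38 chromosome 3, 129532355 to 129638495, plus strand) had 186.0, 180.9, 176.2 and 159.8 FPKM in CT samples 1 to 4 and 186.4, 249.7 and 217.1 FPKM in cMU samples 1 to 3. The cMU samples spread widely, sample 1 level with the highest CT sample and sample 2 far above it, with means of 176 ± 11.3 (SD, n = 4) in CT and 218 ± 31.7 (SD, n = 3) in cMU, or 124% of CT. The log2 fold change was 0.30 (standard error 0.100, 95% interval 0.07 to 0.53, limma-trend adjusted p = 0.123). It was 0.20 without cMU sample 2 and 0.41 without cMU sample 1, and neither passed the threshold. On the deposited normalized counts, which are scaled by a size factor per sample, the direction was the same but the groups overlapped, because cMU sample 1 fell within the CT range (log2 fold change 0.22, limma-trend adjusted p = 0.300). A processed pseudogene, Gm11295, matches Elovl6 over 805 bases at 97.4% identity, so reads could be divided between them.

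ELOVL1 lengthens saturated and mono-unsaturated chains to the very long chains found in sphingolipids. Elovl1 (ENSMUSG00000006390; chromosome 4, 118428093 to 118432953, plus strand) had 184.6, 193.0, 185.9 and 198.2 FPKM in CT samples 1 to 4 and 163.1, 179.2 and 149.0 FPKM in cMU samples 1 to 3. The groups were 5.4 FPKM apart, with cMU sample 2 closest to the controls, and the means were 190 ± 6.36 (SD, n = 4) and 164 ± 15.1 (SD, n = 3). The log2 fold change was -0.22 (standard error 0.0721, 95% interval -0.38 to -0.06, limma-trend adjusted p = 0.117). Without cMU sample 2 it was -0.29 and passed (limma-trend adjusted p = 0.0476), the lowest of a range up to 0.284 when each of the 7 samples was left out in turn. On normalized counts the log2 fold change was -0.30 (limma-trend adjusted p = 0.0943), and all cMU samples stayed below all CT samples. On that scale calls leaned lower, with 103 genes higher and 267 lower, and the share of all genes so separated is not given here. Elovl1 shares 53 exonic bases (1.94% of its exons) with Cdc20 on the other strand, which had a mean of 6.63 FPKM in CT and 7.34 in cMU.

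The retinal and skin enzyme ELOVL4 extends very long chains further, to lengths that the other elongases do not reach. Elovl4 (ENSMUSG00000032262; chromosome 9, 83778692 to 83806277, minus strand) had 22.79, 20.31, 19.97 and 18.40 FPKM in CT samples 1 to 4 and 14.89, 16.33 and 16.44 FPKM in cMU samples 1 to 3. All cMU samples were below all CT samples, with means of 20.4 ± 1.82 (SD, n = 4) and 15.9 ± 0.865 (SD, n = 3). Of the 9 genes it came closest to the threshold, with a log2 fold change of -0.35 (standard error 0.0832, 95% interval -0.53 to -0.16, limma-trend adjusted p = 0.0627). The replicate block, which takes the fold change from the 3 pairs, gave -0.39 (standard error 0.0928), which passed (limma-trend adjusted p = 0.0478). With 1 sample left out at a time, the adjusted p was 0.0617 to 0.156. On normalized counts, where calls leaned lower, the log2 fold change was -0.43 (limma-trend adjusted p = 0.0510), with the groups again apart.

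ELOVL7 acts on saturated chains between those of ELOVL6 and ELOVL1. Elovl7 (ENSMUSG00000021696; chromosome 13, 108214404 to 108287105, plus strand) had 73.65, 65.10, 54.59 and 60.28 FPKM in CT and 52.05, 60.11 and 57.24 FPKM in cMU. The groups overlapped, the CT samples being the more variable, and the log2 fold change was -0.16 (standard error 0.101, 95% interval -0.39 to 0.07, limma-trend adjusted p = 0.359). It was -0.09 without CT sample 1, -0.10 without cMU sample 1 and -0.24 on normalized counts. Elovl3 (ENSMUSG00000038754; chromosome 19, 46131897 to 46135307, plus strand), whose enzyme is best known from brown fat and skin, was listed at 0 in all 7 samples and was not tested. A count of 3 reads per library would have given 0.0462 to 0.0732 FPKM, while 0 of 72 ribosomal protein genes were at 0 in all samples.

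ELOVL5 and ELOVL2 elongate polyunsaturated FAs. Elovl5 (ENSMUSG00000032349; chromosome 9, 77917364 to 77984519, plus strand) had 187.7, 173.3, 182.2 and 168.1 FPKM in CT samples 1 to 4 and 191.3, 193.0 and 193.9 FPKM in cMU samples 1 to 3. The cMU samples lay close together, 3.6 FPKM above the highest CT sample, with means of 178 ± 8.79 (SD, n = 4) and 193 ± 1.32 (SD, n = 3). The log2 fold change of 0.12 (standard error 0.0588, 95% interval -0.02 to 0.25) did not pass (limma-trend adjusted p = 0.256). It was 0.04 on the normalized counts, where the groups overlapped.

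Elovl2 (ENSMUSG00000021364; chromosome 13, 41182495 to 41220405, minus strand) was low, at 2.061, 2.187, 2.190 and 1.486 FPKM in CT samples 1 to 4 and 1.822, 2.515 and 4.618 FPKM in cMU samples 1 to 3, which rest on 175 to 477 reads per sample. The groups overlapped, and cMU sample 3 held more than any other sample. The log2 fold change was 0.42 (standard error 0.248, 95% interval -0.14 to 0.98, limma-trend adjusted p = 0.327), and without cMU sample 3 it was 0.10.

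The reductases of the cycle showed overlapping groups in FPKM. Hsd17b12 (ENSMUSG00000027195; chromosome 2, 94032689 to 94157964, minus strand), which encodes the first reductase, had 97.71, 93.93, 94.19 and 80.07 FPKM in CT and 91.00, 110.6 and 101.2 FPKM in cMU. Its log2 fold change was 0.14 (standard error 0.0898, 95% interval -0.06 to 0.34, limma-trend adjusted p = 0.364). It was 0.07 without cMU sample 2, 0.08 without CT sample 4, 0.21 without cMU sample 1 and 0.06 on normalized counts. Tecr (ENSMUSG00000031708; chromosome 8, 83571700 to 83594491, minus strand), which encodes the second, had 240.5, 233.5, 260.2 and 255.2 FPKM in CT and 238.4, 237.5 and 234.1 FPKM in cMU. With a log2 fold change of -0.06 (standard error 0.0604, 95% interval -0.20 to 0.07, limma-trend adjusted p = 0.561), its interval was among the narrowest of the 8 genes tested. On normalized counts Tecr was lower in each cMU than in any CT sample, by -0.14 on the log2 scale (limma-trend adjusted p = 0.242). Called genes on normalized counts leaned lower, 267 against 103 higher, and the share of all genes so separated is not given here. The FPKM value was -0.04 without CT sample 3. Short stretches of Tecr match the processed pseudogenes Gm48016 (181 bases) and Gm47441 (117 bases).

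Between these reductions acts a dehydratase, and among the dehydratase genes only Hacd4 was called. Hacd4 (ENSMUSG00000028497) had 7.224, 6.237, 6.749 and 7.025 FPKM in CT samples 1 to 4 and 12.59, 9.615 and 10.46 FPKM in cMU samples 1 to 3, so that all cMU samples were above all CT samples. Its log2 fold change was 0.63 (standard error 0.104, 95% interval 0.40 to 0.87, limma-trend adjusted p = 0.0265). It stayed called without cMU sample 1 (limma-trend adjusted p = 0.0422) or 2 (0.0248) and not without CT sample 1 (0.0561), 2 (0.0702), 3 (0.0972) or 4 (0.0552) or cMU sample 3 (0.0847). Hacd4 shares 746 exonic bases (11.0% of its exons) with Focad on the other strand, and Focad had a mean of 9.17 FPKM in CT and 9.79 in cMU. Whether the counting used the strand is not given in the sources used here. Hacd2 had 24.96 to 26.92 FPKM in CT and 26.38 to 31.59 in cMU (log2 fold change 0.19, limma-trend adjusted p = 0.161). Hacd1 (18.97 to 24.04 in CT, 19.48 to 20.17 in cMU) and Hacd3 (52.65 to 56.26 in CT, 54.52 to 59.77 in cMU) had overlapping groups too, and the sign for Hacd3 turned with the scaling of the samples. Pseudogenes match Hacd1 (Gm11451, 637 bases) and Hacd2 (Gm7908, 754 bases). Tecrl, a relative of Tecr, was below the filter, with 4 to 17 reads per sample.

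**Figure D2:**
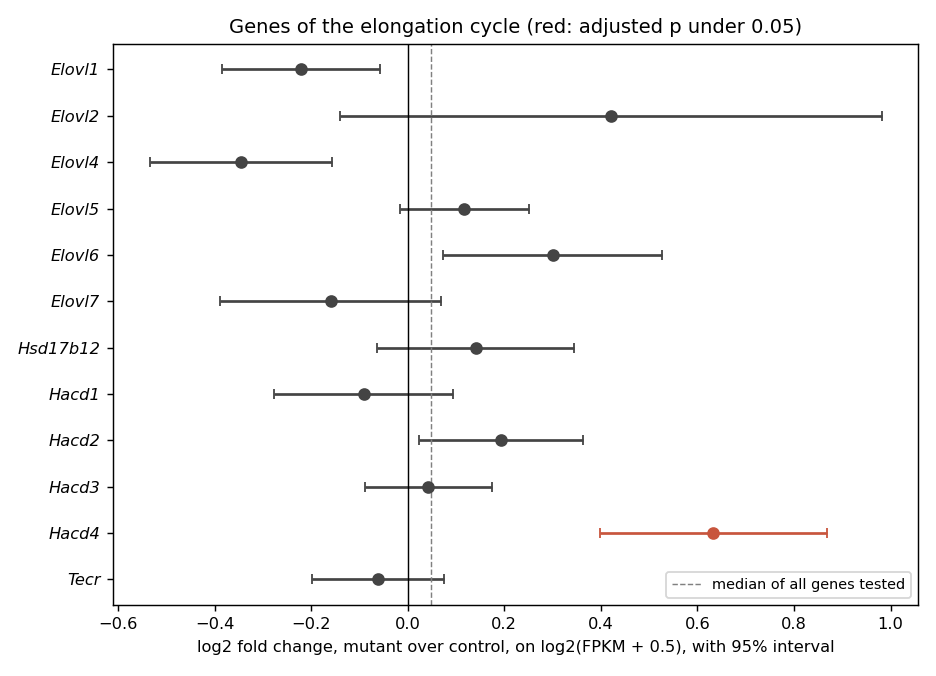
Log2 fold change of FPKM + 0.5, cMU relative to CT, for the 12 tested genes of the elongation cycle, with 95% intervals from limma-trend and a dashed line at the median of all genes tested (0.05). Hacd4, in red, is the gene with an adjusted p under 0.05, and the intervals of Elovl1, Elovl4, Elovl6 and Hacd2 also leave out 0.

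In order of mean FPKM in CT, the genes ran Tecr (247), Elovl1 (190), Elovl5 (178), Elovl6 (176), Hsd17b12 (91.5), Elovl7 (63.4), Elovl4 (20.4), Elovl2 (1.98) and Elovl3 (0). The sample ranges of Elovl1 and Elovl5 overlapped, as did those of Elovl5 and Elovl6, whereas all other neighbours were apart. Tecr, Elovl1, Elovl5 and Elovl6 were abundant transcripts of the nerve, since 1.68%, 2.49%, 2.83% and 2.91% of genes tested had a higher CT mean, respectively, against 83.6% for Elovl2. In cMU the order was Tecr (237), Elovl6 (218), Elovl5 (193), Elovl1 (164), Hsd17b12 (101), Elovl7 (56.5), Elovl4 (15.9), Elovl2 (2.99) and Elovl3 (0). Here the ranges of Tecr and Elovl6 and those of Elovl6 and Elovl5 overlapped. Elovl1 had the highest mean FPKM of the elongases in CT and lay below Elovl6 and Elovl5 in cMU. Its highest cMU sample (179.2) was under the lowest cMU sample of either (186.4 and 191.3). This order depends on the lengths used for FPKM, which were 1384 bases for Elovl1, 2401 for Elovl6 and 5435 for Elovl7. Their exons in GENCODE M21 cover 2726, 6431 and 4013 bases. As shares of the summed normalized counts in CT, which are not per length, Elovl6 took 33.1%, Elovl7 27.0% and Elovl1 20.75%.

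To compare the elongases with each other independently of how samples are scaled, each was expressed as a share of the summed FPKM of all 7. Elovl6 took 28.32%, 28.50%, 28.37% and 26.36% in CT samples 1 to 4 and 30.58%, 35.63% and 34.01% in cMU samples 1 to 3. Elovl1 took 28.11%, 30.40%, 29.93% and 32.69% in CT and 26.76%, 25.57% and 23.34% in cMU. For both, the groups did not overlap, and the differences were 5.52 percentage points for Elovl6 (27.9% ± 1.02 in CT, 33.4% ± 2.58 in cMU) and -5.06 points for Elovl1 (30.3% ± 1.89 in CT, 25.2% ± 1.73 in cMU). Elovl4 had a smaller share in each cMU sample (2.33% to 2.58%) than in any CT sample (3.04% to 3.47%). For these 3 genes the two-sided exact permutation p was 0.0571, the smallest that 4 mice against 3 allow, so the design cannot reach 0.05, and the value adjusted over 6 shares was 0.114. The shares of Elovl2, Elovl5 and Elovl7 overlapped between groups, with adjusted exact permutation p of 0.400, 0.274 and 0.171, and Elovl5 had 28.2% ± 0.906 (SD, n = 4) in CT and 29.8% ± 1.99 (SD, n = 3) in cMU. As shares of the normalized counts, which are not per length and weight long transcripts more, the differences were 6.59 points for Elovl6, -3.44 for Elovl1 and -3.58 for Elovl7, whose groups then did not overlap (24.2% to 29.4% in CT, 22.9% to 23.9% in cMU, two-sided exact permutation p = 0.0571).

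**Figure D3:**
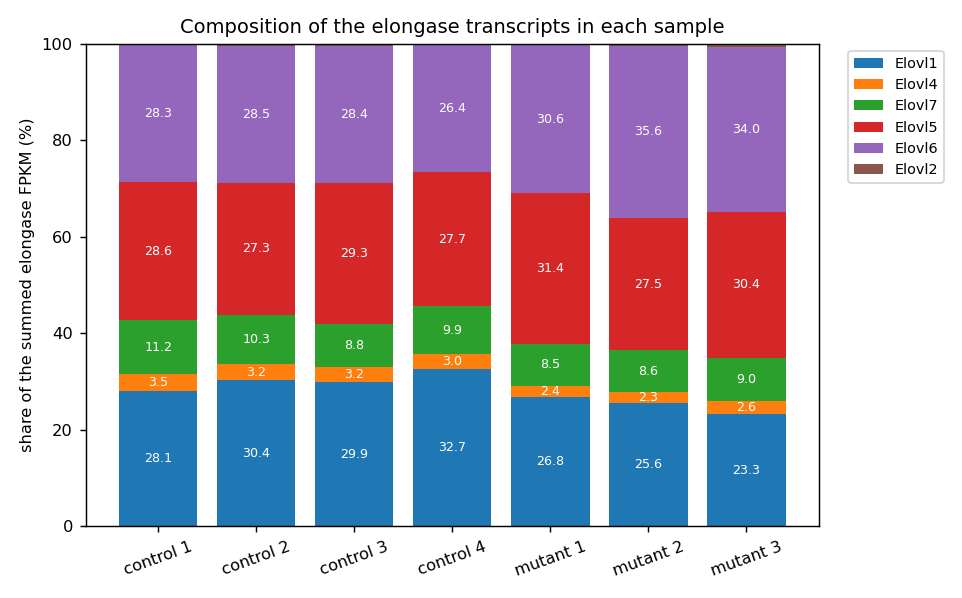
Share of each elongase in the summed FPKM of the 7 elongases, in percent, stacked for each CT and cMU sample. The share of Elovl6 is 26.36% to 28.50% in CT and 30.58% to 35.63% in cMU, and that of Elovl1 is 28.11% to 32.69% in CT and 23.34% to 26.76% in cMU.

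Since OL markers were lower in cMU nerves, each enzyme was also set against the geometric mean FPKM of the 10 markers of myelinating OLs. This mean was 1472, 1571, 1492 and 1476 in CT samples 1 to 4 and 1099, 1418 and 1162 in cMU samples 1 to 3, a log2 difference of -0.30 (two-sided exact permutation p = 0.0571), with cMU sample 2 closest to the controls. On this scale most genes were higher in cMU, with a median log2 difference of 0.35 over genes tested, and 34.0% of all genes tested were higher in each cMU than in any CT sample, against 0.606% lower. In cMU sample 2 Elovl1, Elovl6, Elovl7 and Hsd17b12 had their highest FPKM among the cMU samples. Relative to the markers, Elovl6 was 0.60 higher on the log2 scale in cMU, Hsd17b12 0.44 higher and Elovl5 0.42 higher, without overlap of the groups (two-sided exact permutation p = 0.0571 each, adjusted p = 0.114 over 8 genes). Elovl2 was 0.80 higher, also without overlap and with the same p in the exact permutation test, and cMU sample 3 was the highest at -7.98 against -9.24 and -9.14 in the other cMU samples. Without cMU sample 3 the difference for Elovl2 was 0.40. The astrocyte markers were higher in cMU as well, and their part in the value of Elovl2 was not tested.

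Set against the OL markers, the groups of Elovl1, Elovl4 and Elovl7 overlapped, as those of Elovl7 also did in FPKM. The log2 differences were, in that order, 0.08, -0.05 and 0.14 (two-sided exact permutation p = 0.343, 0.686 and 0.343). All were under the median of 0.35 over genes tested on this scale. For Elovl4 the sign turned without CT sample 1 (0.01) or cMU sample 2 (0.03). Tecr was 0.24 higher relative to the markers, with overlapping groups (two-sided exact permutation p = 0.171), which were apart against markers of newly formed OLs (0.27, exact permutation p = 0.0571).

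**Figure D4:**
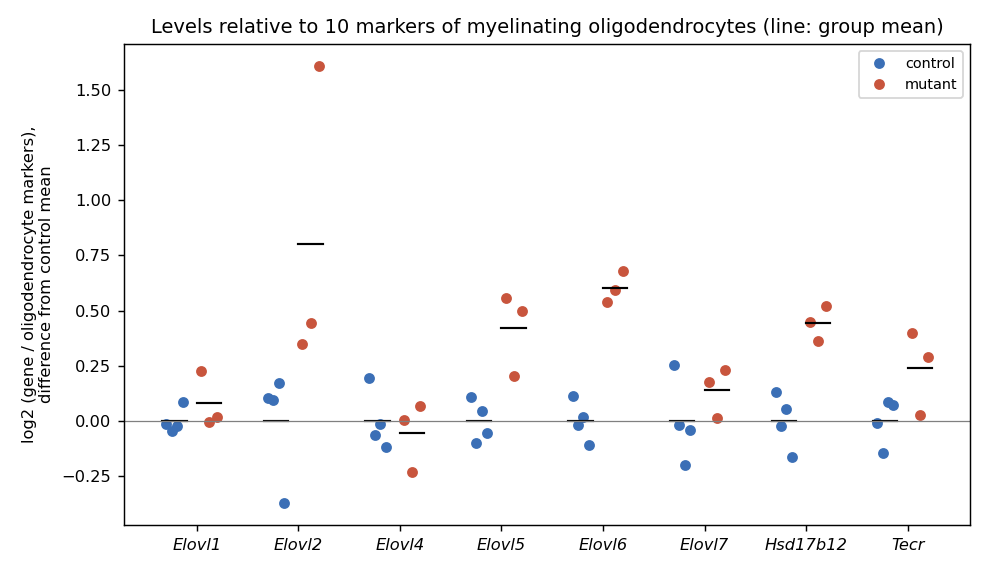
Log2 of the FPKM of each tested gene over the geometric mean FPKM of 10 markers of myelinating OLs, as difference from the CT mean, for each CT and cMU sample. The cMU samples of Elovl2, Elovl5, Elovl6 and Hsd17b12 lie above all CT samples, while those of Elovl1, Elovl4, Elovl7 and Tecr overlap with CT.

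The promoters of the 4 genes whose FPKM groups did not overlap are shown with the elements searched in them, read from RefSeq on GRCm38.p6, where a promoter was given for 8 of the 9 genes (all but Elovl3). Capitals mark matches on either strand to the CCAAT box, to the E-box, spelled CACGTG, or to the GC box, which reads GGGCGG, and matches were allowed to overlap. A sterol regulatory element (TCACNCCAC), the kind of site bound by SREBP factors that drive lipid synthesis genes, was searched too.
Elovl6, chr3:129532136-129532354, plus strand: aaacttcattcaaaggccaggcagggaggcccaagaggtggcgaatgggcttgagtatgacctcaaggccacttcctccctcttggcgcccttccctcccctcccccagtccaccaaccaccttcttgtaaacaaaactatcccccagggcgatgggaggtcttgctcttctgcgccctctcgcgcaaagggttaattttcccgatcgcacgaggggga
Elovl5, chr9:77917115-77917363, plus strand: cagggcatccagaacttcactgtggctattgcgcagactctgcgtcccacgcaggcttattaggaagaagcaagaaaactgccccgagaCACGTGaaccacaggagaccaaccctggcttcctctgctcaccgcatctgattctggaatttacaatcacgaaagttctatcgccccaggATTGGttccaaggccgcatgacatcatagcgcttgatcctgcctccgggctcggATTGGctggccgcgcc
Elovl1, chr4:118427843-118428092, plus strand: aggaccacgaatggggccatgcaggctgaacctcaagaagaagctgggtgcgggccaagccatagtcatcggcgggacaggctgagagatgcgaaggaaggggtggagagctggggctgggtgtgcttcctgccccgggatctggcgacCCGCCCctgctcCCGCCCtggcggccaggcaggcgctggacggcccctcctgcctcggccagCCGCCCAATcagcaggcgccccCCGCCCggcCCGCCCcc
Elovl4, chr9:83806306-83806555, minus strand: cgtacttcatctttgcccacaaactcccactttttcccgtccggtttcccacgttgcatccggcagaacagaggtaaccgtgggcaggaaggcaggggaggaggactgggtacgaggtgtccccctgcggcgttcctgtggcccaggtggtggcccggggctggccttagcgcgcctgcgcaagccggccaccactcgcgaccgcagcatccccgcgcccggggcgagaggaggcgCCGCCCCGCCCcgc
The search covered 250 bases before the RefSeq start, from which positions are counted. The stretches shown for Elovl6 and Elovl5 are cut to 219 and 249 bases. In the 250 bases before its start, Elovl6 had a match to none of the 4 elements. Elovl5 held an E-box at positions -161 to -156 from its start, an element in 6.02% of 32851 RefSeq promoters, and 2 CCAAT boxes, an element in 33.8%. Elovl1, for which RefSeq gives a further promoter (chr4:118429451-118429700) with 2 GC boxes, held 5 GC boxes before the start shown, an element in 32.7%, of which one overlaps its CCAAT box, and Elovl4 held 2 GC boxes that share 1 base. The sterol regulatory element, in 1.05% of promoters, had no match in any of the 8 genes. These are matches of letters in a short window and say nothing of whether a factor binds there or elsewhere.

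The wider pathway was described by 8 lists with 77 genes, chosen with earlier results of these data known. Of the 77 genes, 67 were tested and 7 called, 4 of them higher, where 2.62% of all genes tested were called. Enrichment of the lists was not tested. Besides Hacd4 and Fasn, the deleted gene, the called genes were Thrsp, Scd1, Slc27a3, Slc27a4 and Gal3st1. With a replicate block, which calls 8.36% of all genes tested, 11 passed, the same 7 with Elovl4 and with Me1, Srebf1 and Insig2, which are named here after their values were seen (blocked log2 fold changes of -0.47, 0.63 and 0.40, limma-trend adjusted p = 0.0251, 0.0235 and 0.0372). In the supply of malonyl-CoA and palmitate, Thrsp, which encodes a regulator of lipid synthesis, had 16.11 to 19.60 FPKM in CT and 22.63 to 26.48 in cMU (log2 fold change 0.45, standard error 0.0872, limma-trend adjusted p = 0.0388). Among the desaturases, which place double bonds in the chains that elongases handle, Scd1 had 184.2 to 212.2 FPKM in CT and 236.3 to 340.0 in cMU (log2 fold change 0.56, standard error 0.119, limma-trend adjusted p = 0.0480). The acyl-CoA synthetases of the SLC27 family, which activate long and very long chains, gave calls in both directions. Slc27a3 was higher, at 2.05 to 2.43 FPKM in CT and 3.08 to 4.11 in cMU (log2 fold change 0.59, limma-trend adjusted p = 0.0428), and Slc27a4 was lower, at 33.61 to 36.57 FPKM in CT and 27.35 to 28.56 in cMU (log2 fold change -0.31, limma-trend adjusted p = 0.0369).

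Gal3st1, which encodes the sulfotransferase that makes sulfatide, was the gene called among 11 tested sphingolipid genes, with 74.51 to 89.89 FPKM in CT and 53.96 to 57.54 in cMU (log2 fold change -0.59, standard error 0.0737, limma-trend adjusted p = 0.0148). Of the 7 called genes, Fasn alone was called without CT sample 2 or 3 or without cMU sample 3, where the lowest limma-trend adjusted p of the other 6 was 0.0503. The lists of peroxisomal oxidation (7 genes tested) and of regulators of lipid synthesis genes (11 tested) had no called gene. Their most abundant members had overlapping groups, with means in CT and cMU of 180 and 183 FPKM for Scp2, 97.6 and 91.9 for Hsd17b4, 101 and 92.9 for Scap, and 87.1 and 93.1 for Insig1. Srebf1, Insig2 and Ppara were higher in each cMU than in any CT sample, a separation shown by 12.9% of genes tested. Abcd3 was lower in each cMU, shown by 8.26%. Srebf1, Insig2, Ppara and Abcd3 were named after their values were seen, and none was called without a block. Median log2 fold changes were -0.02 for the elongases, 0.09 for the cycle partners, -0.02 for malonyl-CoA and palmitate supply, 0.17 for desaturases, 0.19 for acyl-CoA activation, 0.09 for sphingolipid genes, -0.04 for peroxisomal oxidation and 0.10 for regulators, against 0.05 over all genes tested.

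For each tested enzyme, the genes whose log2 FPKM ran most alike over the 7 samples were sought among 9451 genes with a mean of at least 5 FPKM. These values share libraries and depth, and with so many genes and 7 samples a high Pearson r is a description only. For Elovl6 it was Ugt8a (r = 0.992), which encodes the galactosyltransferase that makes galactosylceramide, followed by Sap18 (0.974) and B3galt5 (0.970). Ugt8a had 899.6, 869.7, 847.7 and 773.9 FPKM in CT samples 1 to 4 and 905.6, 1222 and 1002 FPKM in cMU samples 1 to 3, with cMU sample 2 highest and CT sample 4 lowest as in Elovl6, and was not called (log2 fold change 0.29, limma-trend adjusted p = 0.152). For Hsd17b12 the genes were Lgalsl (0.972), Esam (0.962) and Sptlc1 (0.962), the last encoding a subunit of serine palmitoyltransferase. Elovl1 ran with Rcor2 (0.987), Sbds (0.981) and Cap1 (0.977), Elovl4 with Gspt1 (0.997), Dcun1d4 (0.986) and Vps35 (0.986), and Elovl7 with Actr3 (0.970), Slc35a5 (0.970) and Odf2l (0.968). For Elovl5 they included Tmem167b (0.968) and Lipo1 (0.967), for Tecr they were Vps16 (0.987), Foxred1 (0.952) and Mgat3 (0.941), and for Elovl2 they were Acss1 (0.983), Glud1 (0.970) and Stau2 (0.967).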

How the data were processed

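RNA from optic nerves of 4 CT and 3 cMU mice was made into stranded poly-A libraries and read from 1 end. Per the labels, reads were processed with STAR 2.5.1b, RSEM 1.2.22 and edgeR on GRCm38. The deposited table covers 22880 genes and has 14 columns for single samples, all used. FPKM values are scaled by the authors for gene length and library size. The other columns hold normalized counts, here the unit signal, which the authors divided by a size factor per sample, whose method is not given in the sources used here. Columns of the authors' own comparison (log2 ratio, p-value, FDR) were not used.

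No raw counts were in the table, and 75.7% to 81.0% of low normalized counts were whole multiples (within 0.05) of the most frequent step, so no count test was run and the FPKM test that had been planned for this case was used. Totals of these steps served as depth. Groups followed the sample titles. Genotype was the single term in limma 3.58.1 (R 4.3.3), with trend, on log2(FPKM + 0.5) for genes with at least 0.5 FPKM in at least 3 samples, which was tested on simulated data, with Benjamini-Hochberg adjustment and a threshold of 0.05. A fold change on this scale understates that of low genes. Single values were compared by exact permutation over samples. Replicates differed by more than counting noise (median chi-square 2.09 to 5.71 per gene) and each was kept. The deviations of samples with the same number correlated across genes (0.168, 0.409 and 0.270, against -0.353 to 0.205 for other pairs). Samples of equal number were therefore treated as pairs in an alternative fit with a replicate block. That pairing came from these same data, since the labels do not say what a number stands for, and CT sample 4 had no partner. Other alternatives were the pseudocount, the filter, the scaling, the normalized counts, the variance trend and leaving out each sample.

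Enzymes were chosen by name, and these and the gene lists were chosen with earlier results of these data known. Named genes are the 9 enzymes, Fasn, the cycle partners, called genes of the pathway and marker lists or the 2 most abundant where none was called, and the 3 most alike genes of each enzyme. Of the marker lists, the most abundant gene is given for myelinating OLs only, and some genes are not reported here. Matching transcripts were searched with BLAST 2.17.0 (at least 100 bases at 95% identity, GENCODE M21).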

Additional observations from a re-analysis of the deposited data

Results flagged for a closer look

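In 29 comparisons of the 4 CT samples with each other, 2 had a sample far from the others by Dixon's criterion, which chance gives in about 1 of 20. The share of Elovl6 in the summed elongase FPKM was 26.36% in CT sample 4, against 28.32% to 28.50% in CT samples 1 to 3. Relative to the markers of myelinating OLs, Elovl2 was at -9.96 on the log2 scale in CT sample 4, against -9.49 to -9.41 in the other CT samples. Without CT sample 4, the difference in the share of Elovl6 between cMU and CT was 5.01 percentage points, with 3 samples a group and an exact permutation p of 0.1, the smallest possible.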

How the results depend on the processing

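Of 16 alternative fits, 2 called one of the 9 enzymes, the replicate block (1 gene, Elovl4) and the fit without cMU sample 2 (1 gene, Elovl1), so the count with a sample left out was 0 to 1. No enzyme changed direction under another pseudocount, filter, scaling, unit or variance model. Over all genes the count of 363 became 95 with no filter on low values, 57 with no variance trend, 1159 with the replicate block and 6 to 909 with a sample left out. In the pathway lists the count of 7 became 3 with no filter, 2 with no trend, 11 with the replicate block and 1 to 8 with a sample left out. The cause of these shifts was not tested. Hacd4 was not called with no filter (limma-trend adjusted p = 0.0620) or no trend (0.0521). Besides Elovl4, the block changed no call among the enzymes and their partners. The log2 fold change of Hacd3 was -0.0033 with samples rescaled to a common median and -0.0355 on normalized counts, and that rescaling moved the median of all genes by -0.04. Relative to the OL markers, Elovl4 was at -0.114 to 0.0346 with a sample left out, above 0 without CT sample 1 (0.0113) or cMU sample 2 (0.0346). The count tests planned for whole reads were not run, since no raw counts could be recovered for nearly all genes. Depth limits Tecrl, with 4 to 17 reads per sample, and Elovl3, listed at 0. Elovl2 rested on 175 to 477 reads per sample, and its log2 fold change fell from 0.42 to 0.10 without cMU sample 3.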

Other observations

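The ratio of Elovl6 to Elovl1 FPKM, chosen after the values had been seen and given without a test, was 1.01, 0.937, 0.948 and 0.806 in CT samples 1 to 4 and 1.14, 1.39 and 1.46 in cMU samples 1 to 3. The lowest cMU value lay above the highest CT value. This had to be so, since in FPKM Elovl6 was higher and Elovl1 lower in each cMU than in any CT sample. The means of the ratio were 0.925 ± 0.0848 (SD, n = 4) and 1.33 ± 0.166 (SD, n = 3).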
